A study of Mus musculus with 6 samples.

Results

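Enzymes that make and use citrulline, arginine, proline, glutamate, serine, glycine, branched-chain amino acids, asparagine, polyamines and tyrosine were examined in the fetal mouse intestine with and without Klf5, the gene of a zinc-finger transcription factor of epithelia. The 38 listed genes were found by their symbols, and a gene was read from its brightest row on the array among rows annotated to that gene alone. This gave 34 genes of the 19938 in the table. Ass1 and Sms had rows only in common with other genes, and those rows were not tested here. Pycr1 and Gls2 were not analysed here. Of the 34 genes, 31 had a single row annotated to that gene alone. Phgdh also had a row in common with another gene, which was not used for its fold change.

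The Klf5-deleted embryos carried the genotype Klf5D/D, and the control embryos were Klf5wt/wt with the ShhEGFP/Cre allele. That allele places a GFP-Cre fusion under the control of Shh, a gene expressed in gut epithelium. The labels do not name the Cre allele of the mutants. All embryos were at day E14.5, before villi form, on a mixed strain background that is part C57Bl/6. Each of the 6 arrays, 3 per group, held labelled RNA from a pool of 2 whole intestine segments taken about 1.5 cm anterior to the cecum. Values are log2 signals, so a difference of 1 is a 2-fold difference. Levels were compared between groups for a gene and not between genes, since probes differ in brightness.

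The fetal and newborn small intestine is known as a site where citrulline and arginine are made. In the mitochondria of enterocytes, NAGS makes the activator of CPS1, CPS1 makes carbamoyl phosphate, and OTC joins it to ornithine to give citrulline. The ornithine comes from glutamine, glutamate and proline through ALDH18A1, PRODH and OAT, and in the cytosol ASS1 and ASL turn citrulline into arginine.

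Of the 34 measured enzyme genes, 12 fell and 2 rose in the Klf5-deleted intestine at a Benjamini-Hochberg adjusted p of 0.05 (limma, adjusted over all 19938 genes). Among all genes 17.5% passed this test, 8.58% lower and 8.95% higher in Klf5-deleted arrays. Of the genes past the test 48.9% were lower, against 59.2% with array median centring (1767 lower and 1216 higher), a setting that left the enzymes at 12 lower and 2 higher. For the enzymes, a list chosen with earlier results of these data known, the share past the test was 41.2%. The genes that fell belonged to citrulline and arginine synthesis (Cps1, Otc, Nags, Asl), to proline and ornithine synthesis (Oat, Aldh18a1), to serine, glycine and cysteine metabolism (Shmt1, Shmt2, Amt, Cth), to branched-chain transamination (Bcat2) and to polyamine synthesis (Srm). The genes that rose were Gpt2 and Gldc. The median log2 fold change was −0.10 over the enzymes and 0.02 over all genes. Only Cps1 and Otc changed by at least 2-fold, a fall that 1.13% of all genes showed. The 2 groups did not overlap for 21 enzyme genes (36.0% of all genes), 16 of them lower in Klf5-deleted arrays (15.9% of all genes) and 5 higher (20.1% of all genes). The number of enzyme genes past the test was 9 without control replicate 1 and 9 without control replicate 2.

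**Figure D1:**
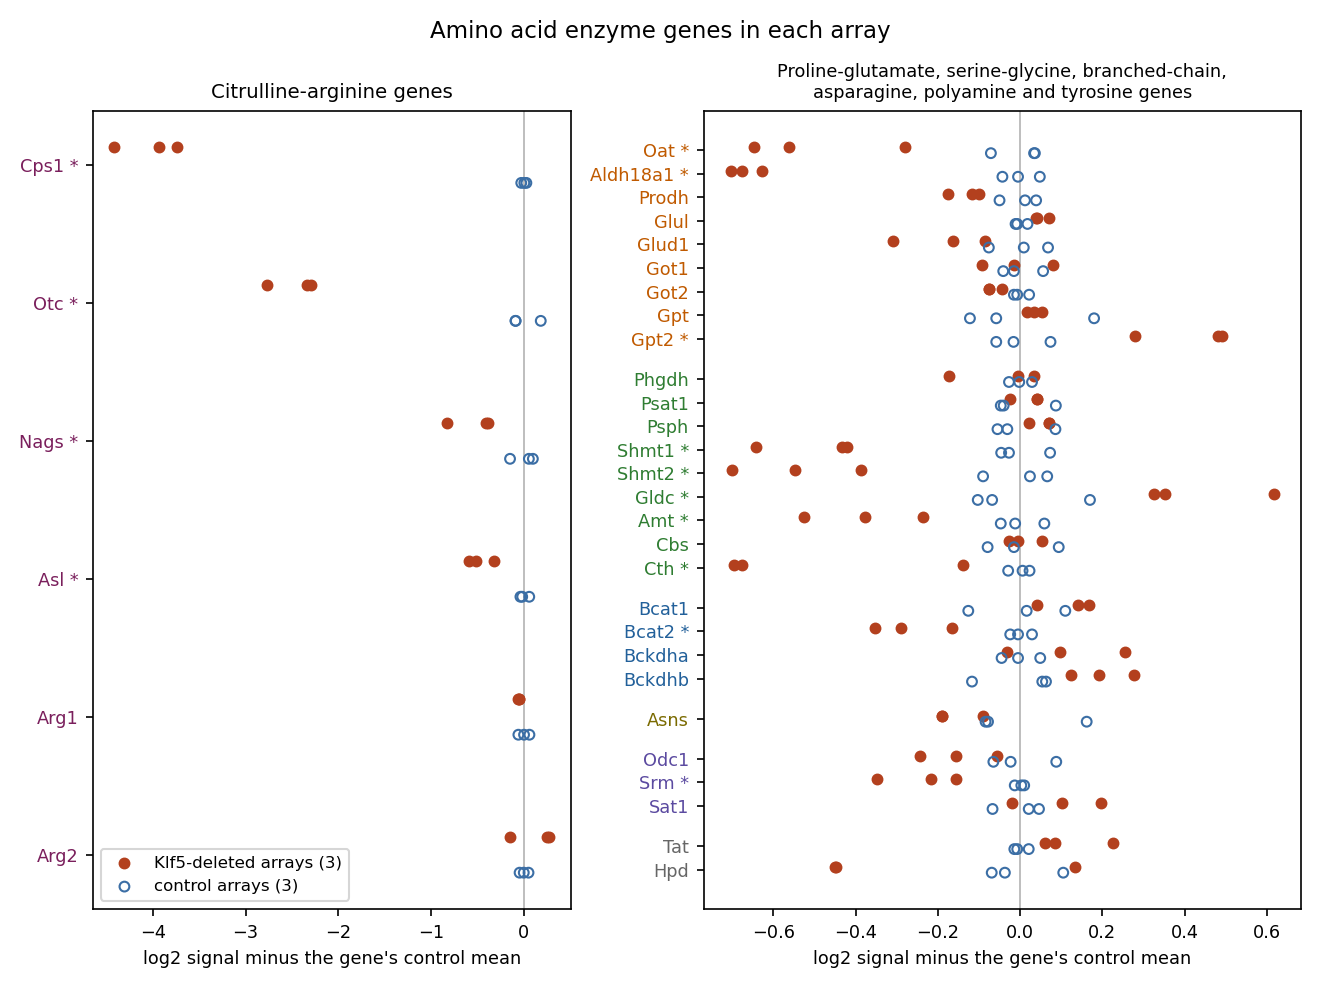
Log2 signal of each enzyme gene in each array after subtracting the gene's mean over the 3 control arrays (horizontal axis). Filled points are the 3 Klf5-deleted arrays and open points the 3 control arrays, an asterisk marks genes with an adjusted p under 0.05, and label colours mark the pathways. The panels have different scales. In the left panel, which holds the citrulline-arginine genes, Cps1 and Otc lie between −4.41 and −2.30 in Klf5-deleted arrays and the lowest point of Nags at −0.83. In the right panel, which holds the other pathways, the lowest points are those of Aldh18a1, Shmt2 and Cth and the highest is that of Gldc.

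Several facts of the arrays as a whole bear on these values. Klf5 itself read 10.24, 10.49 and 10.34 in Klf5-deleted arrays, against 11.55, 11.74 and 11.77 in the controls, a log2 fold change of −1.33 (SE 0.08, adjusted p = 9.62e-05, limma), or 39.8% of the control level. The labels used here do not name the deleted exons. Of 17 pan-epithelial markers 16 fell and 1 (Prom1) rose, and the mean of the list was 10.10 to 10.34 in Klf5-deleted arrays and 11.19 to 11.23 in controls. All 9 markers of intestinal epithelium, Cdx2 and Vil1 among them, fell, with list means of 8.95 to 9.29 in Klf5-deleted arrays and 10.74 to 10.86 in controls. In whole intestine, fewer epithelial cells and less RNA per epithelial cell cannot be told apart. The pools also differed in sex. Xist, the RNA of the inactive X chromosome, read 5.89 to 6.47 in Klf5-deleted arrays and 11.93 to 12.61 in controls, and a male share estimated from 3 Y-linked genes was 95% to 103% in Klf5-deleted pools and 0% to 47.1% in control pools. The part of sex was examined only by adding that share as a covariate. Sex and genotype are largely confounded in these pools, and the median SE over all genes was 2.63 times as large in that fit. A call lost in that fit therefore cannot be assigned to sex. There, 1 enzyme gene (Cps1) passed and the 24 neighbouring genes called below did not (adjusted p of 0.0985 or more in limma). The fold changes of these 24 kept their sign, and 12 were larger in that fit, among them Agmat (−1.18), Slc25a15 (−1.13) and Aspg (−0.88), while Mtr (0.19), Kynu (0.29) and Slc3a2 (−0.10) were smaller. Of the enzymes past the test without it, Aldh18a1 was at −0.74 (SE 0.12, adjusted p = 0.0873, limma) and Shmt2 at −0.77 (SE 0.21, adjusted p = 0.213). Cps1, Otc, Asl, Shmt1 and Cth were also larger with the male share. Nags (−0.39), Oat (−0.42), Gpt2 (0.35), Gldc (0.29), Amt (−0.33), Bcat2 (−0.21) and Srm (−0.23) were smaller with it.

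Cps1, the gene of the enzyme that makes carbamoyl phosphate in mitochondria, showed the largest change of the 34. Its log2 signal was 8.28, 8.96 and 8.77 in Klf5-deleted arrays, against 12.67, 12.72 and 12.70 in the control arrays. The 3 control arrays lay close together, and every Klf5-deleted array was more than 3 units below them. Cps1 fell to 6.14% of the control level (log2 fold change −4.03, SE 0.15, n = 3 arrays per group, adjusted p = 1.36e-05, limma). Leaving out any of the 6 arrays gave values between −4.17 and −3.83. With the estimated male share as a covariate, Cps1 was at −4.04 (SE 0.42, adjusted p = 0.0229).

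Otc, the X-linked gene of ornithine transcarbamylase, read 5.36, 5.83 and 5.79 in Klf5-deleted arrays, against 8.04, 8.31 and 8.04 in the controls. The groups were apart by more than 2 units, and in both Cps1 and Otc the lowest of the 6 values was that of Klf5-deleted replicate 1. Otc fell to 18.1% of the control level (log2 fold change −2.47, SE 0.14, adjusted p = 5.54e-05, limma). Its adjusted p was at most 0.000862 with any array left out and 0.0561 with the male share as a covariate (−2.66, SE 0.37). The Klf5-deleted values of Otc lie near the lower end of the array's range, where array signals are known to understate differences.

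The 250 bases before the start of Otc are printed here because Otc had the largest fall among the members with a RefSeq promoter. They are given 5′ to 3′ on the gene's strand (+), build GRCm38.p6, chrX:10252055-10252304, and capitals mark the letters CACCC, the core that Krüppel-like factors bind, on either strand.
Otc: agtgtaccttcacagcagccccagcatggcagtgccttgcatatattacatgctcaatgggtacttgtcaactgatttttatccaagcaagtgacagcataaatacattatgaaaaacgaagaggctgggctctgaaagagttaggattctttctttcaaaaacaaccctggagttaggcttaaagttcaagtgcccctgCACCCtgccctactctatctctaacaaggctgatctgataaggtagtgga
The window holds 1 such match, 50 bases before the start, and no match to the GC box GGGCGG. It is poor in CpG, with 1 CG and a GC content of 43.6%. A match to CACCC was found in 52% of the 32851 promoters of the table, so these letters are common and their presence describes only the sequence.

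The other genes of the citrulline-arginine route changed less or did not pass the test. Nags, whose product activates CPS1, read 7.06, 7.50 and 7.49 in Klf5-deleted arrays and 7.94, 7.99 and 7.74 in controls. The groups did not overlap, and Nags fell by 0.54 (SE 0.13, adjusted p = 0.0259, limma). It no longer passed in the fit lacking control replicate 1 (−0.51, adjusted p = 0.0789) or in that lacking control replicate 2 (−0.49, with 0.0927). Asl, the gene of argininosuccinate lyase, read 9.25, 9.51 and 9.32 in Klf5-deleted arrays and 9.80, 9.82 and 9.90 in controls, a fall of 0.48 (SE 0.07, adjusted p = 0.00481, limma). Asl passed with any array left out. The groups overlapped in the rows that Ass1 has in common with the gene Gm5424, which were not tested. The brighter of them read 10.34, 10.88 and 10.60 in Klf5-deleted arrays and 10.73, 10.83 and 10.77 in controls.

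The arginases split arginine into ornithine and urea. Arg1, the cytosolic form known best from liver, read 6.76, 6.77 and 6.77 in Klf5-deleted arrays and 6.88, 6.76 and 6.83 in controls (−0.06, SE 0.05, adjusted p = 0.497, limma). Arg2, the mitochondrial form, read 6.64, 7.06 and 7.04 in Klf5-deleted arrays and 6.84, 6.75 and 6.79 in controls (0.12, SE 0.11, adjusted p = 0.536, limma). The groups overlapped for both, and Klf5-deleted replicate 1 held the lowest Arg2 value. Without that array Arg2 passed the test (0.26, adjusted p = 0.0224). Arg1 was among the lowest 25% of genes by mean signal.

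Of 10 measured genes next to this route, 3 fell and 1 rose, a share of 40.0%, against 17.5% of all genes. Slc25a15, the carrier that exchanges ornithine and citrulline across the inner mitochondrial membrane, read 9.44, 9.68 and 9.49 in Klf5-deleted arrays and 10.52, 10.52 and 10.67 in controls, a fall of 2.05-fold (log2 SE 0.08, adjusted p = 0.000194, limma). Agmat, the gene of the enzyme agmatinase, fell 2.09-fold (log2 SE 0.08, adjusted p = 0.000189), with 7.59 to 7.75 in Klf5-deleted arrays and 8.65 to 8.91 in controls. Ddah1, whose product breaks down methylated arginines, fell by 0.32 (SE 0.04, adjusted p = 0.00208). These 3 calls held with any array left out. The gene that rose was the related Ddah2 (0.23, SE 0.06, adjusted p = 0.0287), with 11.54 to 11.68 in Klf5-deleted arrays and 11.32 to 11.45 in controls. It missed the threshold at 0.20 (0.0744) and 0.23 (0.0705) when Klf5-deleted replicates 1 and 2 were dropped, at 0.23 (0.0796) and 0.20 (0.102) when control replicates 1 and 2 were, and at 0.21 (0.0825) with array median centring. The aspartate-glutamate carrier gene Slc25a13 (−0.12) and the nitric oxide synthase genes Nos1 (0.10), Nos2 (−0.04) and Nos3 (0.14) did not pass.

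Among the 9 measured genes of proline and glutamate metabolism, 2 fell and 1 rose, a share of 33.3%, against 17.5% of all genes. The other 6 did not pass. Oat, the mitochondrial aminotransferase that links ornithine to the proline and glutamate intermediate, read 12.50, 12.87 and 12.59 in Klf5-deleted arrays and 13.19, 13.08 and 13.19 in controls. Aldh18a1, the gene of the enzyme that commits glutamate to proline and ornithine, read 11.49, 11.47 and 11.54 in Klf5-deleted arrays and 12.13, 12.17 and 12.22 in controls. Both genes were lower in every Klf5-deleted array, and Aldh18a1 varied less within its groups (SD 0.04 in Klf5-deleted arrays and 0.05 in controls) than Oat (SD 0.19 and 0.06). Aldh18a1 fell by 0.67 (SE 0.05, adjusted p = 0.000152) and Oat by 0.50 (SE 0.09, adjusted p = 0.0115, limma). Both passed with any array left out.

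Gpt2, the mitochondrial alanine aminotransferase gene, rose. It read 9.89, 9.90 and 9.69 in Klf5-deleted arrays and 9.39, 9.35 and 9.48 in controls, and the groups did not overlap. The log2 fold change was 0.42 (SE 0.07, adjusted p = 0.00724, limma), or 134% of the control level, and the call held with any array left out. The cytosolic form Gpt was at 0.04 (SE 0.08, adjusted p = 0.825).

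The promoters of Oat, Aldh18a1 and Gpt2 are shown because these genes stand for both directions of change among the mitochondrial steps of this route. Each run is the 250 bases before the start on the gene's strand in GRCm38.p6: chr7:132576399-132576648 (−) for Oat, chr19:40588464-40588713 (−) for Aldh18a1 and chr8:85492326-85492575 (+) for Gpt2. Capitals mark CACCC and GGGCGG, the GC box, on either strand.
Oat: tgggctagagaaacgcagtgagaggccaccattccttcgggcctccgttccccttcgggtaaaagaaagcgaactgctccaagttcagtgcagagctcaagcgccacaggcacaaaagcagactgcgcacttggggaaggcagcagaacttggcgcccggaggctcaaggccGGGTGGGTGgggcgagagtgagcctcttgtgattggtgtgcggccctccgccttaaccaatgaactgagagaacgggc
Aldh18a1: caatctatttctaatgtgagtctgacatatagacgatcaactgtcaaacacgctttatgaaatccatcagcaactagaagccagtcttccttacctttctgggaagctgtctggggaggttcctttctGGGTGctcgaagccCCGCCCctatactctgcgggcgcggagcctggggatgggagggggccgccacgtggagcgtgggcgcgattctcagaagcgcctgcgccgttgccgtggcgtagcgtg
Gpt2: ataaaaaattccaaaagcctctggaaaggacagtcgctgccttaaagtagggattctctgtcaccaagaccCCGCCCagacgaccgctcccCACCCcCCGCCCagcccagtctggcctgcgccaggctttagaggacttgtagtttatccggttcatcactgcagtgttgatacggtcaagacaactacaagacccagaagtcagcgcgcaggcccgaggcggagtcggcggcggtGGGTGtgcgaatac
Oat holds 2 overlapping CACCC matches, 78 and 74 bases before its start, Aldh18a1 holds 1 CACCC and 1 GGGCGG match, and Gpt2 holds 2 of each. With 14 to 18 CG and a GC content of 57.2% to 60%, all 3 windows were richer in CpG than that of Otc. CACCC stood before the gene that rose and before both genes that fell. These letters were found in 52% of all promoters, and their presence describes only the sequences.

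The 6 genes that did not pass include the main glutamate enzymes. Glud1, glutamate dehydrogenase, read 11.45, 11.68 and 11.60 in Klf5-deleted arrays and 11.77, 11.69 and 11.83 in controls (−0.19, SE 0.07, adjusted p = 0.117, limma). Prodh, the proline dehydrogenase gene, was at −0.13 (SE 0.05, adjusted p = 0.108) with no overlap of the groups. Glul, glutamine synthetase, was at 0.05 (SE 0.04), and its second row at 0.15 (SE 0.06), both short of the threshold. The aspartate aminotransferase genes Got1 and Got2 were at −0.0088 (SE 0.06) and −0.07 (SE 0.04). The array values of Got1 lay between 11.19 and 11.36 over both groups. Those of Got2 were 13.09 to 13.12 in Klf5-deleted arrays and 13.15 to 13.19 in controls. Besides Prodh, the groups did not overlap for Glud1 and Got2, lower in Klf5-deleted arrays, and for Glul, higher in them. Among all genes 36.0% showed no overlap.

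Of 8 measured genes next to this route, 1 fell and 1 rose. Pycrl, a pyrroline-5-carboxylate reductase gene, fell by 0.28 (SE 0.04, adjusted p = 0.00526), with 10.19 to 10.24 in Klf5-deleted arrays and 10.47 to 10.54 in controls. Aldh4a1, whose product oxidises the proline intermediate back to glutamate, rose by 0.28 (SE 0.05, adjusted p = 0.00956), with 8.87 to 9.01 in Klf5-deleted arrays and 8.65 to 8.69 in controls. Both calls held with any array left out. Gclc, the catalytic subunit gene of glutathione synthesis, was at −0.19 (SE 0.06, adjusted p = 0.064).

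**Figure D2:**
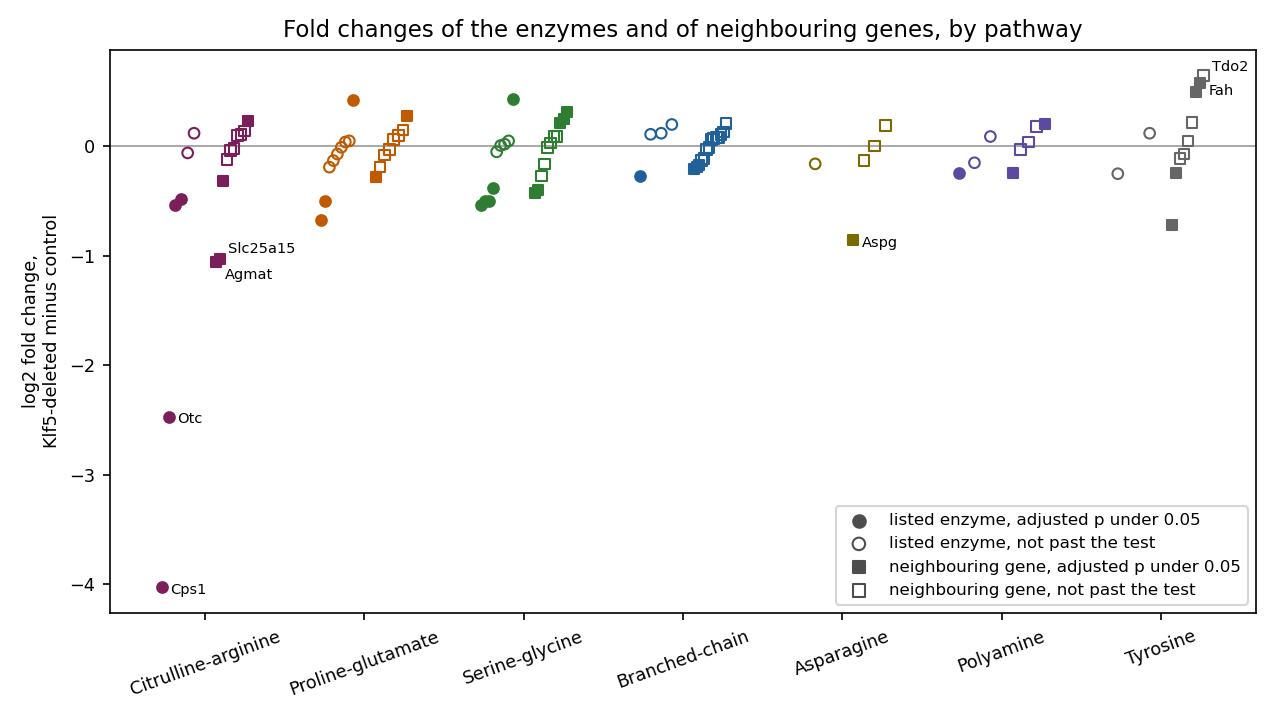
Log2 fold change, Klf5-deleted minus control (vertical axis), of the listed enzyme genes (circles) and of neighbouring genes of the pathways (squares), by pathway. Filled symbols have an adjusted p under 0.05. Cps1 at −4.03 and Otc at −2.47 lie far below the rest, followed by the neighbouring genes Agmat at −1.06, Slc25a15 at −1.03 and Aspg at −0.86.

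In serine, glycine and cysteine metabolism, 4 of 9 genes fell, 1 rose and 4 did not pass. The share past the test was 55.6%, against 17.5% of all genes. The 3 enzymes of serine synthesis from a glycolytic intermediate gave small differences in the rows of their own. Phgdh was at −0.05 (SE 0.06), Psat1 at 0.02 (SE 0.05) and Psph at 0.05 (SE 0.05), with overlapping groups and adjusted p of 0.566 or more. Psat1, for example, read 11.35, 11.41 and 11.41 in Klf5-deleted arrays and 11.33, 11.33 and 11.46 in controls. The Phgdh row in common with the gene Gm6756 read 11.02, 10.95 and 11.04 in Klf5-deleted arrays and 11.17, 11.25 and 11.36 in controls. The groups did not overlap in that row, which was not tested.

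The enzymes that move one-carbon units between serine and glycine differed more. Shmt1, the cytosolic serine hydroxymethyltransferase gene, read 10.15, 10.36 and 10.37 in Klf5-deleted arrays and 10.75, 10.77 and 10.87 in controls. Shmt2, the mitochondrial form, read 11.32, 11.01 and 11.16 in Klf5-deleted arrays and 11.62, 11.77 and 11.73 in controls. Both forms were lower in every Klf5-deleted array: Shmt1 fell by 0.50 (SE 0.07, adjusted p = 0.00364) and Shmt2 by 0.54 (SE 0.08, adjusted p = 0.00512, limma). The array with the lowest Shmt1 value, Klf5-deleted replicate 1, had the highest Shmt2 value of its group.

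The 2 listed subunits of the mitochondrial glycine cleavage system went opposite ways. Gldc, the decarboxylating subunit, read 9.08, 9.35 and 9.06 in Klf5-deleted arrays and 8.66, 8.63 and 8.90 in controls and rose by 0.43 (SE 0.10, adjusted p = 0.0254, limma). Amt, the aminomethyltransferase subunit, read 9.54, 9.69 and 9.83 in Klf5-deleted arrays and 10.06, 10.02 and 10.13 in controls and fell by 0.38 (SE 0.08, adjusted p = 0.0147, limma). Both calls depended on single arrays. Gldc missed the threshold at 0.34 (adjusted p = 0.053) when Klf5-deleted replicate 2 was dropped, at 0.40 (0.08) when control replicate 1 was dropped and at 0.38 (0.0915) when control replicate 2 was dropped. Amt missed it at −0.35 (adjusted p = 0.0582) when control replicate 3 was dropped. The other subunits of the system, Gcsh (−0.16, SE 0.05) and Dld (0.03, SE 0.06), did not pass.

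Cth, the enzyme that releases cysteine from cystathionine, read 9.00, 9.54 and 8.98 in Klf5-deleted arrays, against 9.65, 9.68 and 9.70 in controls. Klf5-deleted replicate 2 stood just below the controls, and the other Klf5-deleted arrays stood further below them. The fall of 0.50 (SE 0.14, adjusted p = 0.0471, limma) was lost when any array but Klf5-deleted replicate 2 was left out (adjusted p = 0.101 to 0.136, with −0.42 without Klf5-deleted replicate 1, −0.41 without Klf5-deleted replicate 3 and −0.52, −0.50 and −0.49 without control replicates 1 to 3). With quantile normalization its adjusted p was 0.0507. Cbs, which makes cystathionine, was at 0.0073 (SE 0.06).

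Of 11 measured genes next to this route, 2 fell and 3 rose, a share of 45.5%, against 17.5% of all genes. Mthfd1l and Mthfd1, of mitochondrial and cytosolic folate interconversion, fell by 0.43 (SE 0.05, adjusted p = 0.00131) and 0.40 (SE 0.05, adjusted p = 0.00281). Mtr, methionine synthase, rose by 0.31 (SE 0.04, adjusted p = 0.00374), with 9.98 or more in all Klf5-deleted arrays and 9.62 to 9.71 in controls. These 3 calls held with any array left out, as did that of Csad, of taurine synthesis, which rose by 0.25 (SE 0.05, adjusted p = 0.0107, limma). With the replicate number as a block in the fit, Csad missed the threshold (adjusted p = 0.0508). Srr, serine racemase, rose by 0.21 (SE 0.06, adjusted p = 0.0427) and kept its call only when the array dropped was Klf5-deleted replicate 2, with 0.17 to 0.23 (0.0949 to 0.125) for the other 5. With array median centring it missed the threshold too (0.19, adjusted p = 0.0838).

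Of the 4 branched-chain genes, Bcat2, the mitochondrial aminotransferase, was the member that fell. It read 10.26, 10.08 and 10.14 in Klf5-deleted arrays and 10.46, 10.41 and 10.42 in controls. The groups did not overlap, and the fall of 0.27 (SE 0.06, adjusted p = 0.0183, limma) did not hold in 4 of the fits on 5 arrays. Bcat2 was at −0.26 (adjusted p = 0.063) lacking Klf5-deleted replicate 3, and at −0.26, −0.28 and −0.27 (0.0594, 0.0541 and 0.0585) lacking control replicates 1, 2 and 3 in turn. Bcat1, the cytosolic form, was at 0.12 (SE 0.07, adjusted p = 0.33). Of the dehydrogenase subunits, Bckdha was at 0.11 (SE 0.08, adjusted p = 0.412) and Bckdhb at 0.20 (SE 0.07, adjusted p = 0.0882).

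Bckdhb read 11.33, 11.26 and 11.41 in Klf5-deleted arrays and 11.20, 11.02 and 11.19 in controls, with no overlap. It passed in 3 other fits, with the lowest 50% of genes left out (adjusted p = 0.0438), with an intensity trend and robust variance (adjusted p = 0.0395) and with array weights (adjusted p = 0.0418). Of 14 measured genes further along the pathway, 3 fell and 0 rose: Auh (−0.21, SE 0.05), Pccb (−0.19, SE 0.05) and Bckdk (−0.17, SE 0.05). At 21.4% this share was near that of all genes. Bckdk (−0.20 to −0.15, 0.0525 to 0.127) and Pccb (−0.21 to −0.16, 0.0623 to 0.121) missed the threshold whichever array was dropped. Auh missed it at −0.19 (0.0614) and −0.21 (0.0562) when Klf5-deleted replicates 2 and 3 were dropped and at −0.18 (0.0773) when control replicate 2 was. With array median centring, 1 of the 3 (Auh) passed.

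Asns, asparagine synthetase, read 11.60, 11.69 and 11.59 in Klf5-deleted arrays and 11.70, 11.71 and 11.95 in controls. The groups did not overlap but nearly touched, and the difference of −0.16 (SE 0.08, adjusted p = 0.215, limma) did not pass. Aspg, an asparaginase gene, fell by 0.86 (SE 0.08, adjusted p = 0.000441), with 7.97 to 8.24 in Klf5-deleted arrays and 8.96 to 9.05 in controls. The other 3 measured genes of this group did not pass.

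The transcription factor ATF4 is known to induce Asns, Psat1 and other genes when amino acids run short. Of 14 measured genes of that response, 3 fell and 0 rose, a share of 21.4%, near that of all genes. Atf4 itself was at −0.09 (SE 0.04, adjusted p = 0.247, limma). Slc7a1, a transporter of cationic amino acids such as arginine, fell by 0.46 (SE 0.05, adjusted p = 0.000861), with 9.68 to 9.80 in Klf5-deleted arrays and 10.19 to 10.24 in controls. Slc3a2, a subunit of amino acid transporters (−0.18, adjusted p = 0.0333), missed the threshold whichever array was dropped (−0.21 to −0.16, 0.06 to 0.096). Eif4ebp1, a translation inhibitor (−0.20, adjusted p = 0.048), kept its call only when Klf5-deleted replicate 2 was dropped, and was at −0.21 to −0.16 (0.0944 to 0.142) for the other 5. With quantile normalization Slc7a1 was the gene of this list that passed. The ATF4 site letters TGATGNAA were found before Asns and Got1, 2 of 31 member promoters (6.45%), against 3.45% of all promoters.

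Polyamines are made from ornithine by ODC1 and then by SRM and SMS, and SAT1 starts their breakdown. Srm, spermidine synthase, read 12.52, 12.33 and 12.46 in Klf5-deleted arrays and 12.68, 12.69 and 12.66 in controls and fell by 0.24 (SE 0.06, adjusted p = 0.0282, limma). Dropping Klf5-deleted replicate 1 left it past the threshold. It missed it at −0.19 (adjusted p = 0.0577) when Klf5-deleted replicate 2 was dropped, at −0.25 (0.0674) for Klf5-deleted replicate 3, and at −0.24, −0.24 and −0.25 (0.0751, 0.0919 and 0.0761) for control replicates 1, 2 and 3. Odc1 was at −0.15 (SE 0.07, adjusted p = 0.166), and its second row at −0.23 (SE 0.12). Sat1, an X-linked gene, was at 0.09 (SE 0.07, adjusted p = 0.412). The groups overlapped in the rows that Sms has in common with the gene Gm8234, which were not tested. The brighter of them read 11.36, 11.41 and 11.32 in Klf5-deleted arrays and 11.25, 11.24 and 11.39 in controls.

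Of 5 measured genes around polyamines, 1 fell and 1 rose, a share of 40.0%, against 17.5% of all genes. Dohh, an enzyme of the hypusine modification that uses spermidine, fell by 0.24 (SE 0.05, adjusted p = 0.0112, limma). With the replicate number as a block in the fit, Dohh missed the threshold (adjusted p = 0.0614). Oaz2, an antizyme gene that restrains ODC1, rose by 0.20 (SE 0.04, adjusted p = 0.0167), but missed the threshold at 0.20 (0.0566) when Klf5-deleted replicate 3 was dropped, and at 0.19 (0.0673) and 0.20 (0.0522) when control replicates 2 and 3 were. With array median centring it was at 0.18 (adjusted p = 0.0543).

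The tyrosine enzymes Tat and Hpd, best known from liver, did not pass. Tat read 6.65, 6.82 and 6.68 in Klf5-deleted arrays and 6.61, 6.59 and 6.58 in controls (0.12, SE 0.06, adjusted p = 0.182, limma), and it was among the lowest 25% of genes by mean signal. Hpd read 7.08, 7.66 and 7.08 in Klf5-deleted arrays and 7.63, 7.46 and 7.49 in controls (−0.25, SE 0.15, adjusted p = 0.326). The value of Klf5-deleted replicate 2 was the highest of all 6, and without it Hpd passed (−0.45, adjusted p = 0.00776). Of 9 measured genes near these steps, 2 fell and 2 rose, a share of 44.4%, against 17.5% of all genes. Pcbd1, which recycles the cofactor of aromatic amino acid hydroxylases and is also a cofactor of HNF1 factors, fell by 0.72 (SE 0.08, adjusted p = 0.0013), and Fah, the last enzyme of tyrosine breakdown, rose by 0.58 (SE 0.09, adjusted p = 0.00561). Qdpr, which also recycles that cofactor, fell by 0.24 (SE 0.06, adjusted p = 0.0428) and missed the threshold whichever array was dropped (−0.27 to −0.18, 0.061 to 0.131). Kynu, of tryptophan breakdown, rose by 0.50 (SE 0.11, adjusted p = 0.0188), but missed the threshold at 0.43 (0.0522) and 0.49 (0.0622) when Klf5-deleted replicates 2 and 3 were dropped, and at 0.44 (0.0614) and 0.47 (0.0716) when control replicates 1 and 2 were.

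Signals of liver markers differed among the pools, and liver is known to express genes such as Cps1, Otc, Arg1, Tat and Hpd too. Alb, the albumin gene, read 8.47, 12.53 and 11.50 in Klf5-deleted arrays and 10.85, 11.12 and 11.81 in controls. The mean of the 10 liver markers was 7.40 to 9.03 in Klf5-deleted arrays and 7.82 to 8.37 in controls, so the groups overlapped, and 1 marker (Ambp) passed, higher in Klf5-deleted arrays. Klf5-deleted replicate 2 had the highest value of its group for 8 of the 10 liver markers and for 6 of the 12 enzyme genes that fell (Cps1, Otc, Nags, Asl, Oat and Cth). It had the lowest value for 4 of the 12 (Aldh18a1, Shmt2, Bcat2 and Srm), and over all 34 enzyme genes it was highest for 15 and lowest for 12. Klf5-deleted replicate 1 had the lowest value of its group for 8 of 10 liver markers, for 15 of 17 pan-epithelial markers and for 7 of the 12 enzyme genes that fell. Relative to the control mean, the liver list was at −0.64, 0.98 and 0.30 in Klf5-deleted replicates 1 to 3. The intestinal epithelium list had the same order, with −1.86, −1.53 and −1.60. Whether liver RNA had a part in the spread among these arrays was not tested. With any array left out Cps1 stayed between −4.17 and −3.83 and Otc between −2.56 and −2.32. Red cell markers, 2 of 5 higher in Klf5-deleted arrays (Hbb-y and Hba-x), had list means of 10.54 to 11.32 in Klf5-deleted arrays and 10.29 to 10.89 in controls.

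**Figure D3:**
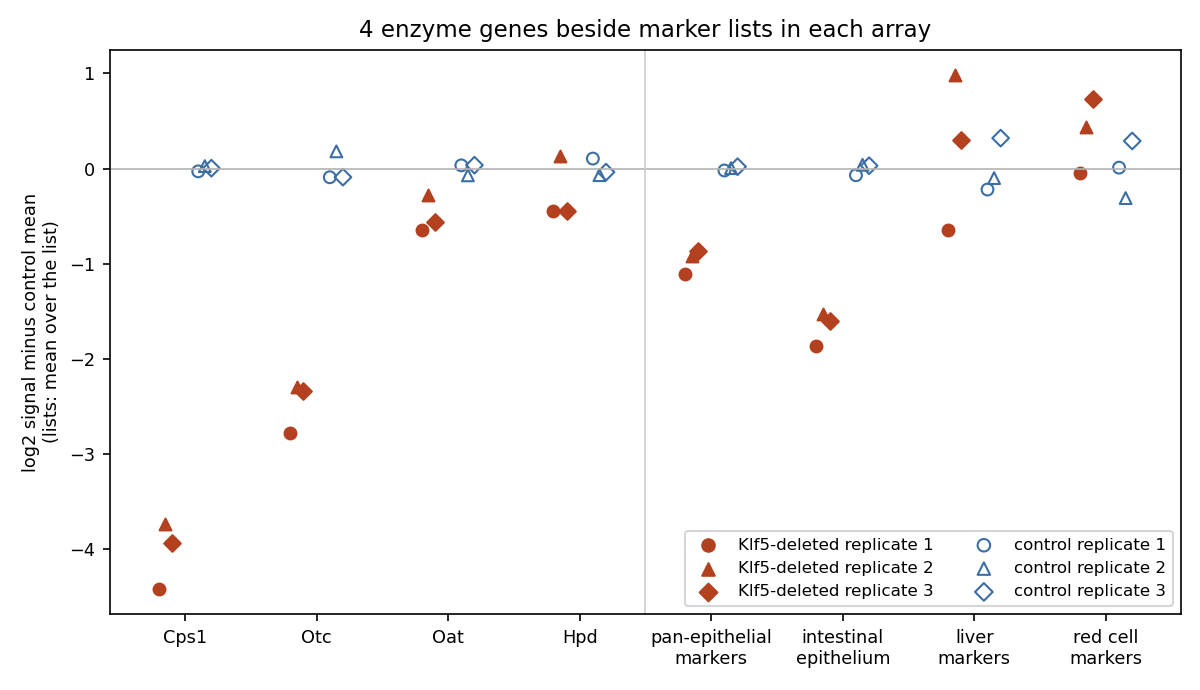
Log2 signal relative to the control mean (vertical axis) of Cps1, Otc, Oat and Hpd and, right of the line, the mean of 4 marker lists in each array. Symbols mark the replicate number, filled for Klf5-deleted and open for control arrays. Klf5-deleted replicate 2 stands at 0.98 and replicate 1 at −0.64 for the liver markers. Replicate 2 is also the highest and replicate 1 the lowest of their group for the intestinal epithelium list (−1.53 and −1.86), Cps1 and Otc. For the pan-epithelial list replicate 3 is the highest (−0.87) and replicate 1 the lowest (−1.11).

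The spread among replicates was itself unequal. For 11 of the 12 enzyme genes that fell, the SD was larger in the Klf5-deleted arrays, with a median of 0.15 in Klf5-deleted arrays and 0.05 in controls. The same held for 17 of the 17 pan-epithelial markers, with a median SD of 0.15 in Klf5-deleted arrays and 0.05 in controls. Over all 34 enzyme genes the SD was larger in Klf5-deleted arrays for 23 (67.6%), with a median of 0.10 in Klf5-deleted arrays and 0.06 in controls. Over all genes the SD was larger in Klf5-deleted arrays for 10570 (53%), with a median of 0.07 in Klf5-deleted arrays and 0.06 in controls.

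In 5 reactions the list holds a cytosolic and a mitochondrial enzyme, so that their log2 difference could be taken within each array. For Bcat1 minus Bcat2 it was −0.50, −0.29 and −0.48 in Klf5-deleted arrays and −0.96, −0.67 and −0.79 in controls. For Gpt minus Gpt2 it was −2.43, −2.48 and −2.25 in Klf5-deleted arrays and −1.81, −2.00 and −2.20 in controls. In both pairs the groups did not overlap: relative to the mitochondrial form, the cytosolic one was higher by 0.39 for Bcat and lower by 0.38 for Gpt in Klf5-deleted arrays. By exact permutation (two-sided) p was 0.1 for each, the smallest that 3 arrays against 3 allow, and 0.25 after adjustment over the 5 pairs. The groups overlapped for Arg1 minus Arg2 (a difference of −0.18 between groups), Got1 minus Got2 (0.06) and Shmt1 minus Shmt2 (0.05), with exact permutation p of 0.4, 0.5 and 0.8. The Shmt difference varied more among Klf5-deleted arrays (SD 0.27) than among controls (SD 0.08).

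**Figure D4:**
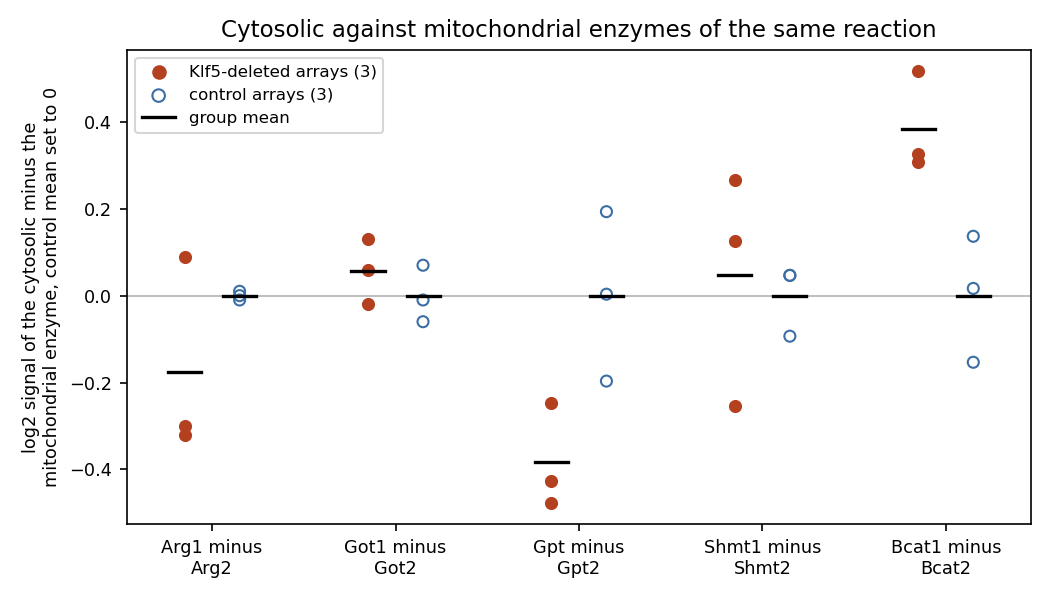
Log2 signal of the cytosolic minus the mitochondrial enzyme of the same reaction in each array, with the control mean of each pair set to 0 (vertical axis). Filled points are Klf5-deleted arrays, open points control arrays, and bars the group means. The groups are apart for Gpt minus Gpt2, lower by 0.38 in Klf5-deleted arrays, and for Bcat1 minus Bcat2, higher by 0.39.

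Promoters of the list were searched for 5 sets of letters in the 250 bases before each start, on both strands. RefSeq promoters were matched for 27 of the 34 genes, in 31 windows. CACCC was found in 22 of the 31 windows (71%), against 52% of all promoters, and before 6 of the 8 genes with a promoter that fell. It also stood before Bcat1, Bckdhb, Cbs, Gldc, Glul, Got1, Gpt2, Odc1, Phgdh, Prodh, Psat1, Psph, Sat1 and Tat, which did not fall. GGGCGG was found in 16 windows (51.6%), against 32.7% of all promoters, and before 4 of the 8 genes that fell. Asns, Bckdhb, Cbs, Gldc, Glud1, Glul, Gpt2, Hpd, Odc1, Psat1, Psph and Sat1, which did not fall, held it too. CAAAGTC, the core of an HNF4 site, was in 0 of 31 windows, against 3.84% of all promoters, and TTTATNG, a CDX-like site, was in 2 windows, those of Glul and Got2, against 9.81%. These are counts of letters in short windows and not of bound sites.

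Of the 14 enzyme genes past the test, 8 passed with any of the 6 arrays left out: Cps1, Otc, Asl, Oat, Aldh18a1, Gpt2, Shmt1 and Shmt2. The other 6 were Nags, Gldc, Amt, Cth, Bcat2 and Srm. With the male share as a covariate all 14 kept their sign. The median SE over all genes was then 2.63 times as large.

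**Figure D5:**
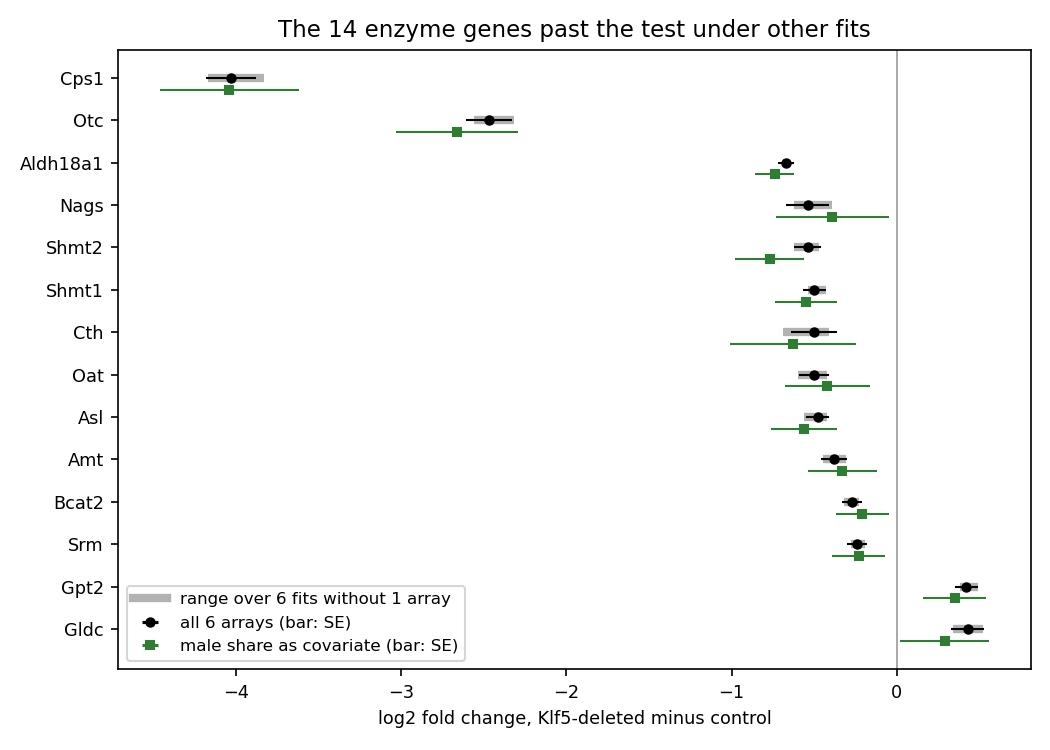
Log2 fold change (horizontal axis) of the 14 enzyme genes with an adjusted p under 0.05. Black points are the fit of all 6 arrays with its SE, grey bars the range over the 6 fits that leave out an array, and green squares the fit that includes the male share, with its SE. Every gene stays on its side of 0, and the green bars are wider.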

How the data were processed

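The platform was the Affymetrix Mouse Gene 1.0 ST array, with 6 pools of fetal intestine. Per the submitters' processing notes, the deposited log2 signals were made by the authors with RMA (Expression Console 1.1). RMA equalises the distributions of arrays and thereby takes out any shift that most genes share. The labels name no genome build for the annotation. Arrays have no read depth, and their number limits the precision.

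Groups and replicate numbers came from the sample titles. Of 35557 rows, 21789 carried 1 gene symbol, 1621 several and 12147 none here. Symbols were updated by gene ID to RefSeq (GRCm38.p6, 21698 rows matched), and the brightest row was kept for each of 19938 genes, 999 of which had more than 1 row. No filter on level was applied. The test was limma 3.58.1 under R 4.3.3 (lmFit and eBayes, Benjamini-Hochberg over all genes, threshold 0.05), and SE is from the moderated variance. Enzyme pairs were compared by exact permutation (SciPy 1.17.1). The labels do not say whether the pools are separate litters, and p values reflect only how these pools varied.

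All 34 members are named, and of each list of neighbouring genes up to 3 with the smallest p. Other genes are named as examples chosen after their values were seen. Members and lists were chosen with earlier results of these data known. Marker lists also covered mesothelium (4 of 5 higher and 1 lower in Klf5-deleted arrays), mesenchyme (2 of 8 higher), smooth muscle (1 of 7 higher), enteric neurons and glia (1 of 6 higher and 1 lower), leukocytes (1 of 7 lower), endothelium (0 of 7, and 1 of 7 at an unadjusted p of 0.05 in limma) and pancreas (0 of 7, and 0 of 7 unadjusted).

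Alternatives were each array left out, quantile normalization, a block for replicate number, array median centring, dropping the lowest 25% or 50% of genes, robust variance with an intensity trend, array weights, the mean of all rows of a gene, every row tested, the male share as a covariate (from Eif2s3y, Kdm5d and Uty on the linear scale, with 0% at the lowest array and 100% at the Klf5-deleted mean) and a threshold of 0.1.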

Additional observations from a re-analysis of the deposited data

How the results depend on the processing

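With 1 array left out, between 2000 and 2757 genes passed in all, against 3496 with all 6 arrays, 1132 to 1394 of them lower and 868 to 1363 higher in Klf5-deleted arrays. Of the enzyme genes 9 to 14 passed, 8 to 12 lower and 1 to 3 higher. The labels do not say whether the replicate numbers pair the arrays. Same-numbered arrays had deviations from their group means that correlated at −0.145, −0.274 and −0.0315. These values cannot settle it, since deviations within a group of 3 arrays depend on each other. With the replicate number as a block, 2008 genes passed (1108 lower and 900 higher), and of the enzyme genes 9 fell and 1 rose. Those that no longer passed were Nags (adjusted p = 0.0564), Cth (0.0642), Srm (0.0787) and Gldc (0.0764, all limma). With the male share as a covariate 83 genes passed (79 lower and 4 higher), and of the enzyme genes 1 fell (Cps1) and 0 rose. Sex and genotype are largely confounded in these pools. No enzyme gene past the test changed its sign in any of the 16 other fits in which it was measured. Sign changes occurred in 8 enzyme genes short of the threshold: with an array left out, Got1 ranged from −0.05 to 0.03, Gpt from −0.03 to 0.13, Phgdh from −0.09 to 0.01, Psat1 from −0.0044 to 0.06 and Cbs from −0.03 to 0.05. With the male share as a covariate Arg1 was at 0.09, Got1 at 0.08, Psat1 at −0.04, Bcat1 at −0.22 and Sat1 at −0.07. With array median centring Psat1 was at −0.0021 and Cbs at −0.01, and with quantile normalization Cbs was at −0.0072. The difference between Shmt1 and Shmt2 ranged from −0.06 to 0.20 with an array left out. The cause was not tested. Of the 34 enzyme genes, 2 and 8 fell away with the lowest 25% and 50% of genes, Otc and Nags among the 8, and signals of dim genes understate change.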
